A study of Mus musculus with 8 samples.

Results

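The 48 genes described here carry out mitosis or the G2/M step that leads into it, in mouse blood stem cells kept in culture with or without the drug eltrombopag. Members are defined by gene symbol alone, with no threshold on their values, though the list was drawn up with earlier results of these data known. Each was read from the probe set that the platform annotation pairs with that symbol alone. Of the 48 symbols, 47 were measured, with 1 probe set each, among 19505 genes in all. Ccnb1, the cyclin B1 gene, was not analysed here. Values are log2 expression values from Affymetrix arrays, so a difference of 1 is a doubling, and levels of different probe sets are not compared with each other.

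Mitotic genes are silent in resting cells and are transcribed late in the cell cycle. Cyclin-dependent kinase 1 with its cyclins starts mitosis, the kinetochore proteins attach chromosomes to the spindle, the spindle checkpoint delays separation until all are attached, and the anaphase-promoting complex then triggers separation by marking securin and the cyclins for destruction. Kinesin motors and spindle-associated proteins build the spindle, and the cytokinesis proteins divide the cell. Most haematopoietic stem cells (HSCs) in the bone marrow rest outside the cell cycle, and stem cell factor (SCF) in culture is a survival and growth signal for them.

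Prospective HSCs were sorted as Lin-Sca-1+c-Kit+CD150+CD48- cells from the marrow of mice 6 to 10 weeks old, whose strain and genotype the labels do not name. All cells were kept in Myelocult medium with 100 ng/ml recombinant mouse SCF and the antimicrobial Primocin. For 16 h they received either 10 µg/ml eltrombopag, an agonist of the thrombopoietin receptor that also chelates iron, or sterile water as the vehicle. Eltrombopag is known to activate the human thrombopoietin receptor and not the mouse one. About 10 ng of RNA per sample was amplified and hybridised, giving 4 arrays a group, which the titles call biological replicates 1 to 4. Nothing in the labels says that replicates came from separate animals, so p-values speak only of the spread seen among these arrays, which may be partly technical.

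All 8 arrays were alike, with pairwise Pearson correlations over genes of 0.9868 to 0.9933. The leading principal component (25.5% of the variance) separated the arrays numbered 1 and 2 (scores -18.8 to -11.0) from those numbered 3 and 4 (14.0 to 15.6) in both groups. It held 25.4% when computed without the mitosis genes. Both arrays numbered 3 had high Uty, a gene of the Y chromosome (7.71 and 6.98, against 3.02 to 3.31 on the others), and the main results on the array numbers are also given without those arrays. Of the sort's own markers, Kit had log2 values of 12.82 to 12.94 and Slamf1 (CD150) of 6.19 to 7.75. Ly6a, the Sca-1 gene, was not analysed here, and Cd48 is counted only among the progenitor markers below. These few values do not show how pure the sort was. The stem cell transcription factor Hlf had values of 11.19 to 11.78. The B cell gene Cd79a had values of 5.51 to 6.37 and the T cell gene Cd3e of 4.66 to 5.34, where the lower quartile over all genes averaged 5.05. Neither gene stands for its whole list. On single arrays the median over 7 B cell markers was 5.53 to 6.36, and over 8 T and NK cell markers 4.85 to 5.26. Single genes of a list can lie well above its median. These arrays give no detection call, and a bulk array cannot tell fewer cycling cells from less mitotic RNA in each cell.

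Many mitotic promoters share a pair of short elements. One is the cell cycle genes homology region, with the letters TTTGAA or, in fewer promoters, the letters TTTAAA, and the other is the CCAAT box. The repressor complex DREAM binds the first in resting cells, and B-MYB and FOXM1 are brought to it later in the cycle. The stretches below are the 120 bases before the transcription start in RefSeq (GRCm38.p6), printed 5′ to 3′ on the gene's strand. They are shown because the first 5 belong to genes whose arrays separated by number, as described further on, while Cdk1, Top2a and Pttg1 did not separate. Capitals mark these elements on either strand, so a homology region can also read TTCAAA, and a CCAAT box on the other strand reads ATTGG.
Plk1, chr7:122159315-122159434, plus strand: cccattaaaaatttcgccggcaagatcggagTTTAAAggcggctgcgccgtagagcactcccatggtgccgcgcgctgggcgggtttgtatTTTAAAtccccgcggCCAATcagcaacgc
Ccnb2, chr9:70421555-70421674, minus strand: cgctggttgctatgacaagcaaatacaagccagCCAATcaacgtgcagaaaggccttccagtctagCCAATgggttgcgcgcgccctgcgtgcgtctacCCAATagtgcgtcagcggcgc
Cdc20, chr4:118437344-118437463, minus strand: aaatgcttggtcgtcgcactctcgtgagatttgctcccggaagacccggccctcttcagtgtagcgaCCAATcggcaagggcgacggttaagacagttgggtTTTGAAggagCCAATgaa
Ube2c, chr2:164769809-164769928, plus strand: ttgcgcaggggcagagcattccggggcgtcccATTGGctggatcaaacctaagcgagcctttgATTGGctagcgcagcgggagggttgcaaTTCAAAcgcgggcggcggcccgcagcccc
Prc1, chr7:80294356-80294475, plus strand: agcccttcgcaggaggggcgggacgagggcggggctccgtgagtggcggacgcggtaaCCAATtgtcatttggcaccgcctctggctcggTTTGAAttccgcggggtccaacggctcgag
Cdk1, chr10:69352913-69353032, minus strand: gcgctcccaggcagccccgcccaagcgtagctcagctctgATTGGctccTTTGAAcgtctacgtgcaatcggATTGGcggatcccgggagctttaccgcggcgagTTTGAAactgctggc
Top2a, chr11:99024190-99024309, minus strand: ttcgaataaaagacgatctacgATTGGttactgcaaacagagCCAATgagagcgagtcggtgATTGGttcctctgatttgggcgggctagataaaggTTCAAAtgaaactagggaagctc
Pttg1, chr11:43425982-43426101, minus strand: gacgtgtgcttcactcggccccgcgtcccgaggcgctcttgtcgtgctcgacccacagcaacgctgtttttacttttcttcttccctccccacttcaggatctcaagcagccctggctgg
Matches were searched on both strands in windows of 300 bases, from 250 before the start to 50 after it, and no motif can lie inside another, though their ends can overlap. RefSeq promoter entries matched 41 of the 48 members, in 46 windows. TTTGAA was in 31 of these windows (67.4%), against 17.9% of all 32851 windows of that length. CCAAT was in 36 (78.3%), against 37.4% of all, and 27 windows (58.7%) held both, against 6.95% of all. TTTAAA was in 9 windows (19.6%), against 13.2%. In the Cdc20 promoter the TTTGAA began 18 bases before the start and in that of Ube2c 29 bases before it. Plk1 held TTTAAA 89 and 29 bases before its start, with a TTTGAA 31 bases after it, outside the stretch shown. Ccnb2 held TTTGAA 167 bases before its start and 5 bases after it, both outside its stretch. Prc1 has a further entry, with the stretch chr7:80294331-80294450, in which TTTGAA began 5 bases before the start and ran past it. The Pttg1 stretch held none of the letters searched. That stretch lies inside the gene's annotated span, chr11:43420244-43427463, so it does not describe the bases before the span's 5′ end. Each match is a description of letters in a window and not of a bound site.

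The first question was whether eltrombopag changed these genes over 16 h. None of the 47 members passed the threshold of an adjusted p under 0.05 in limma's moderated test with Benjamini-Hochberg adjustment over all genes, and neither did any of the 19505 genes (0.00%). The smallest adjusted p among the members was 0.9998, from 4 arrays against 4. Without adjustment, 1 member, Nuf2, had p under 0.05, against 3.33% of all genes (1.74% higher and 1.59% lower). Values were higher on average with the drug for 17 members and lower for 30, where 52.3% of all genes were higher and 47.7% lower. The median difference of the members was -0.032, against 0.007 for all genes, and single members ranged from -0.50 to 0.45.

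**Figure D1:**
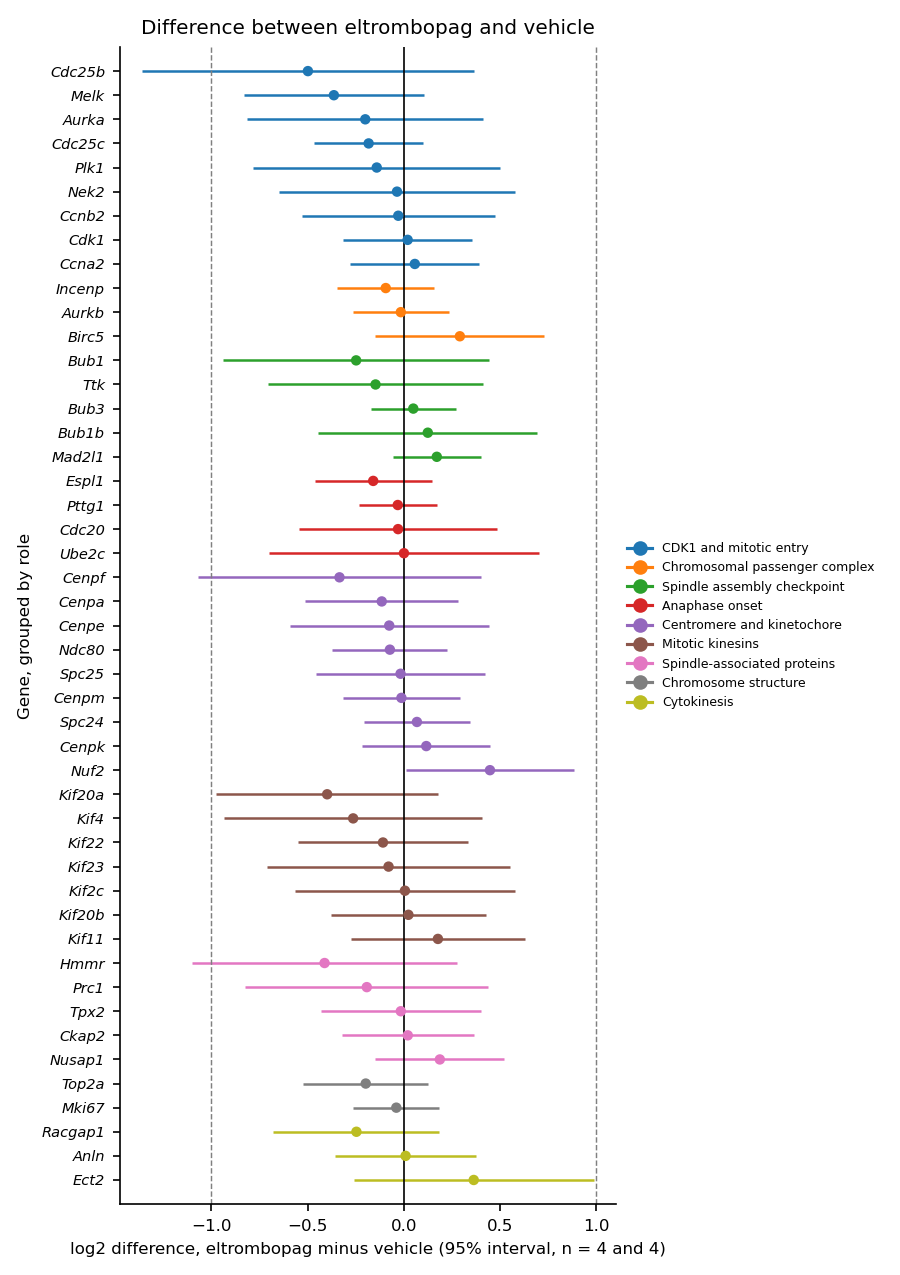
Log2 difference of each of the 47 measured genes, eltrombopag minus vehicle, grouped and coloured by role; points are differences of the means of 4 arrays, bars are 95% intervals from limma, and dashed lines mark a 2-fold difference. Nearly all bars cross 0, the one exception being Nuf2 on the higher side, and the widest belong to genes such as Cdc25b, Hmmr and Cenpf.

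The median over the 47 members on each array was 8.17, 8.22, 7.79 and 7.90 on vehicle arrays 1 to 4, and 8.37, 7.96, 7.68 and 7.75 on eltrombopag arrays 1 to 4. The groups overlapped, with means of 8.02 ± 0.209 and 7.94 ± 0.312 (SD, n = 4 each). Leaving out single arrays moved the median difference between -0.16 and 0.037, and its sign turned without vehicle array 1, vehicle array 2 or eltrombopag array 3, so no direction is given for the genes as a whole. No member had all eltrombopag arrays above or all below the vehicle arrays, which held one way or the other for 2.12% of all genes. Between arrays of the same number, Mad2l1 and Nusap1 were higher with the drug in 4 of 4 pairs (6.73% of all genes), and Prc1, Racgap1, Melk and Ndc80 were lower in 4 of 4 (5.87%).

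The intervals, taken gene by gene without adjustment over all genes, give the range of drug differences compatible with each gene's values. For 44 of the 47 members the 95% interval of the drug difference lay within a 2-fold change either way, as it did for 98.7% of all genes. The exceptions were Cdc25b, Hmmr and Cenpf. A 1.5-fold change lay outside the interval for 26 members, against 88.0% of all genes. These intervals come from the fit without pairing, so they hold the gap between array numbers described below. With the array number as a replicate block, the counts were 46 members (99.3% of all genes) for the 2-fold change, with Cdc25b the exception, and 33 members (90.8%) for the 1.5-fold change. The intervals reached a median of 0.44 to either side of the difference without the block and 0.29 with it, over the members. Members varied more within groups than genes in general: their median SD within a group was 0.34, against 0.18 over all genes. With numbers 1 and 2 and numbers 3 and 4 each centred on their own mean within each group, the SDs were 0.22 and 0.17.

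Among the 9 measured genes of mitotic entry, none passed the test, and the median drug difference was -0.141. Cdk1, the kinase that drives entry into mitosis, had log2 values of 9.26, 9.11, 8.63 and 9.005 on vehicle arrays 1 to 4 and 9.10, 8.72, 9.05 and 9.22 on eltrombopag arrays 1 to 4. The groups overlapped, with a difference of 0.019 (SE 0.15, 95% interval -0.32 to 0.36). Plk1, a kinase that promotes entry and spindle formation, had 9.81, 9.86, 8.94 and 9.13 with vehicle and 9.92, 9.62, 8.74 and 8.90 with the drug. High and low values of Plk1 stood in the same array numbers of both groups, and the drug difference was -0.14 (SE 0.29, interval -0.78 to 0.50, or -0.38 to 0.095 with the replicate block).

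Cdc25b, a phosphatase that activates Cdk1, had the most negative drug difference of the members. Its values were 7.96, 7.91, 7.45 and 7.64 with vehicle and 8.51, 7.40, 6.87 and 6.20 with the drug. The drug arrays held both the highest and the lowest value, and the difference of -0.50 (SE 0.39, interval -1.36 to 0.36) had an unadjusted p of 0.227. It was -0.15 without eltrombopag array 4 and -0.92 without eltrombopag array 1. The related phosphatase gene Cdc25c had values of 5.80, 6.04, 5.50 and 5.69 with vehicle and 5.53, 5.68, 5.68 and 5.40 with the drug. They overlapped, at a difference of -0.18 (SE 0.13, interval -0.47 to 0.10). Melk, a kinase gene expressed in dividing cells, had 4.91, 4.23, 4.04 and 3.75 with vehicle and 4.07, 3.89, 3.77 and 3.75 with the drug. Vehicle array 1 stood above all others, and the difference was -0.36 (SE 0.21, unadjusted p = 0.115), or -0.14 without that array. Melk was also the only member whose mean lay below the lower quartile of all genes on the arrays (5.05).

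In the chromosomal passenger complex, which corrects faulty attachments and is needed for cytokinesis, the 3 genes had a median difference of -0.016. Its kinase gene Aurkb had values of 9.02, 9.26, 9.14 and 9.19 with vehicle and 9.32, 8.90, 9.24 and 9.09 with the drug. These overlapped fully, with a difference of -0.016 (SE 0.11, interval -0.27 to 0.23). Birc5, which encodes survivin, had 8.77, 8.92, 8.73 and 8.36 with vehicle and 9.61, 8.73, 8.77 and 8.84 with the drug. Eltrombopag array 1 alone stood above the vehicle range for Birc5, and the difference of 0.29 (SE 0.20, unadjusted p = 0.172) was 0.084 without that array.

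The 5 spindle checkpoint genes had a median drug difference of 0.049. Bub1, a checkpoint kinase gene, had 7.50, 8.10, 7.65 and 7.90 with vehicle and 8.37, 7.66, 6.55 and 7.58 with the drug. Its drug values ran from above to well below the vehicle range, so the difference of -0.25 came with an SE of 0.31. Mad2l1, whose product holds the anaphase-promoting complex inactive, had 10.03, 9.79, 9.83 and 9.94 with vehicle and 10.09, 10.08, 9.90 and 10.21 with the drug. Here 3 of the 4 drug arrays stood above every vehicle array, and the difference of 0.17 (SE 0.10, interval -0.057 to 0.40) had an unadjusted p of 0.127.

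For the 4 genes of anaphase onset the median drug difference was -0.031. Cdc20, the activator of the anaphase-promoting complex, had 9.48, 9.56, 8.77 and 8.73 with vehicle and 9.61, 9.12, 8.93 and 8.76 with the drug. The drug difference was -0.031 (SE 0.23, interval -0.55 to 0.49). Ube2c, the ubiquitin-conjugating enzyme that works with that complex, had 8.85, 9.10, 8.09 and 8.28 with vehicle and 9.37, 8.84, 7.94 and 8.17 with the drug. Its group means coincided, at a difference of 1.54e-05 (SE 0.32, interval -0.70 to 0.70), while the values within each group were spread widely.

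Of the 9 centromere and kinetochore genes, Nuf2 had the smallest unadjusted p of all members. Its product is a subunit of the NDC80 complex, which grips spindle microtubules. The values were 6.72, 7.12, 6.79 and 6.52 with vehicle and 7.61, 6.70, 7.48 and 7.14 with the drug. Eltrombopag array 2 lay within the vehicle range and the other three above it. Means were 6.78 ± 0.25 and 7.23 ± 0.40 (SD), and the difference of 0.45 (SE 0.20, interval 0.011 to 0.88) had an unadjusted p of 0.0454 and did not pass after adjustment. With the replicate block its unadjusted p was 0.0666. The partner subunits Ndc80, Spc24 and Spc25 had differences of -0.073, 0.067 and -0.018. Cenpf, a large kinetochore protein of late G2 and mitosis, had 7.39, 7.41, 6.35 and 6.36 with vehicle and 7.22, 6.76, 6.39 and 5.80 with the drug. The groups overlapped, with a difference of -0.33 (SE 0.33) that ran from -0.56 to -0.088 with single arrays left out.

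Among the 7 mitotic kinesins, with a median drug difference of -0.080, Kif20a had 7.64, 7.22, 6.56 and 7.32 with vehicle and 7.40, 6.80, 6.67 and 6.26 with the drug. This motor acts in the spindle midzone and in cytokinesis. Its values overlapped, and the difference of -0.40 (SE 0.26, interval -0.98 to 0.18) had an unadjusted p of 0.155. Kif11, the motor that pushes spindle poles apart, differed by 0.18 (SE 0.20).

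The 5 genes of spindle-associated proteins had a median drug difference of -0.016. Hmmr, a microtubule-associated protein also known as a hyaluronan receptor, had 7.57, 7.84, 7.26 and 7.58 with vehicle and 7.90, 7.67, 6.70 and 6.32 with the drug. Only the drug arrays numbered 3 and 4 were below the vehicle range, and the difference was -0.41 (SE 0.31, interval -1.10 to 0.28), or -0.14 without eltrombopag array 4. Nusap1, which bundles spindle microtubules, had 8.60, 8.77, 8.10 and 8.36 with vehicle and 8.76, 8.82, 8.47 and 8.53 with the drug. Groups overlapped for Nusap1, at a difference of 0.19 (SE 0.15). Prc1, which bundles the microtubules of the midzone, had 8.65, 8.47, 7.56 and 7.98 with vehicle and 8.43, 8.42, 7.44 and 7.60 with the drug. Each drug array was lower than the vehicle array of its number, by little beside the gap between numbers 2 and 3, and the difference was -0.19 (SE 0.28).

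The 2 genes of chromosome structure also overlapped between the groups. Top2a, the topoisomerase that untangles sister chromosomes, had 9.30, 9.57, 9.14 and 9.25 with vehicle and 9.16, 8.79, 9.44 and 9.07 with the drug. The difference was -0.20 (SE 0.15, unadjusted p = 0.206). Mki67, the gene of the proliferation marker Ki-67, had 11.10, 11.04, 10.84 and 10.82 with vehicle and 10.99, 10.94, 10.80 and 10.90 with the drug. It varied little, and its difference of -0.040 (SE 0.10) had an interval of -0.26 to 0.18. Of the 3 cytokinesis genes, Ect2, which activates RhoA at the cleavage furrow, had 6.35, 6.60, 6.15 and 5.50 with vehicle and 7.26, 6.00, 6.32 and 6.47 with the drug. The single high drug array and the single low vehicle array stand out, and the difference was 0.36 (SE 0.28, unadjusted p = 0.225), or 0.11 without eltrombopag array 1.

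**Figure D2:**
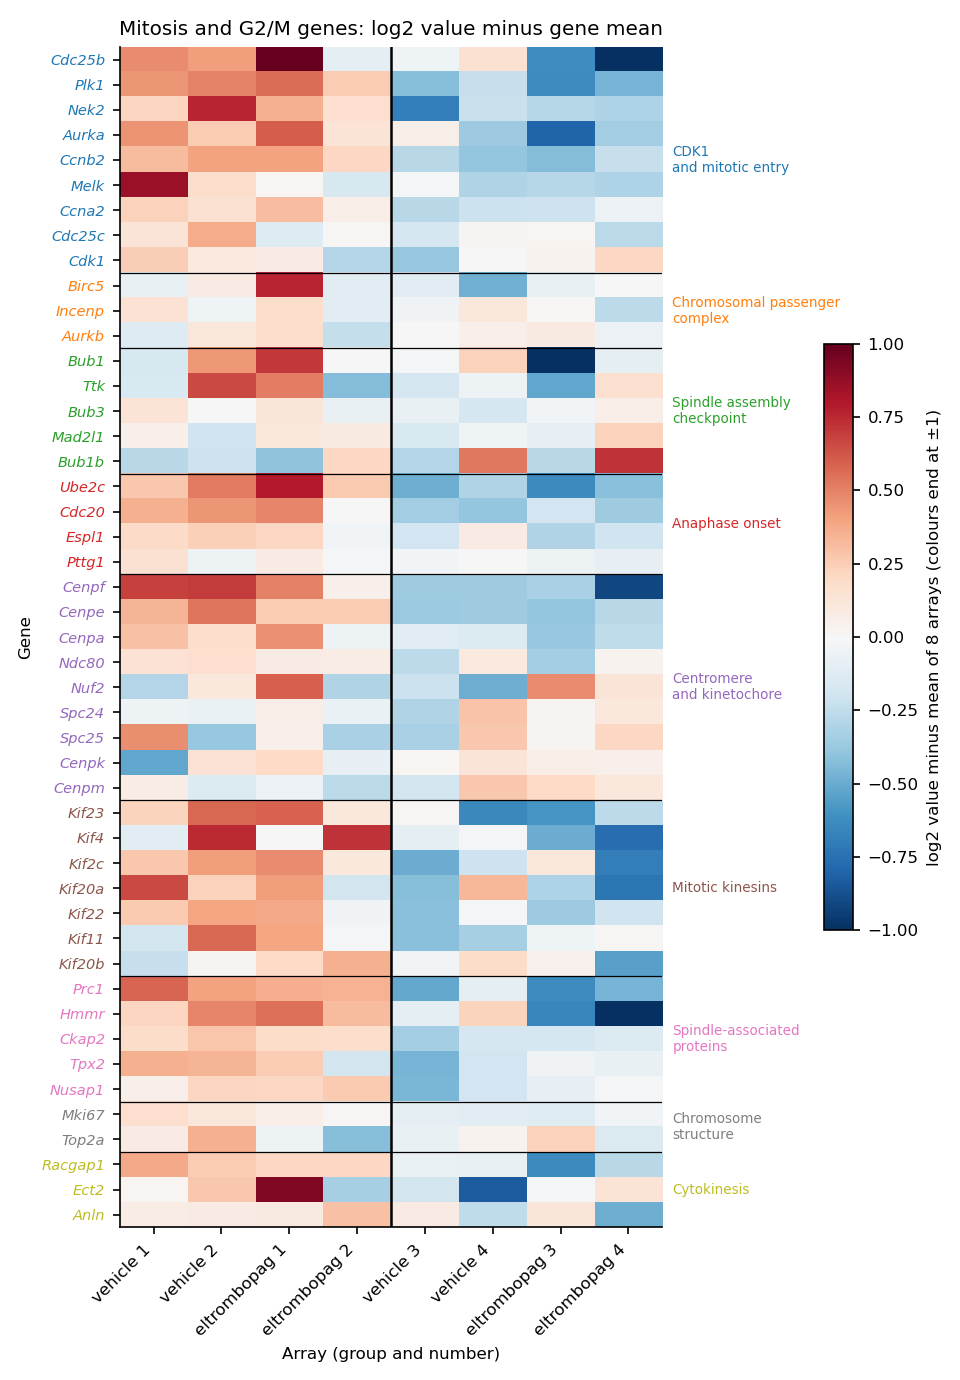
Log2 value of each of the 47 genes on each of the 8 arrays minus the gene's mean over all arrays, red above and blue below, with genes grouped by role and the arrays numbered 1 and 2 to the left of the vertical line; colours end at a difference of 1. Most genes are red or pale on the left and blue on the right in both groups, while Bub1b and several kinetochore and passenger genes do not show this.

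The values followed the array number more than the drug. The arrays numbered 3 and 4 were set against those numbered 1 and 2 because the first principal component had shown that split in these same data, so the values are a description with no test, and the labels do not say what the numbers stand for. In vehicle arrays 41 of the 47 members had a lower mean in numbers 3 and 4 (50.9% of all genes did), and in eltrombopag arrays 39 did (49.7%). In both groups at once 37 members were lower, against 29.2% of all genes, and 4 were higher, against 28.6%: Bub1b, Cenpm, Aurkb and Spc24. The median difference between the numbers was -0.37 in vehicle and -0.34 in eltrombopag arrays, where the median over all genes was 0.00 in each. Without eltrombopag array 1 the second of these was -0.22. It was -0.29 without both arrays numbered 3, and the vehicle median was then -0.33.

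For 16 members all 4 arrays numbered 3 and 4, whichever the drug, lay below all 4 numbered 1 and 2, against 3.77% of all genes. No member had them all above, against 3.47%. Within vehicle alone the arrays were separated in the lower direction for 30 members (17.9% of all genes) and within eltrombopag alone for 27 (18.9%). They were separated so in each group for 21 (5.75%), and upward in each group for 0 (5.25%). A mean difference below -0.5 was found for 17 members, against 1.57% of all genes. Leaving out the arrays numbered 3 gave 19 members below and 3 above (Bub1b, Cenpm and Spc24), where 9.11% of all genes lay below and 8.80% above. Then 33 members were lower in both groups, against 27.8% of all genes, and 5 were higher, against 5179 of the 19505 genes. The members' somewhat wider spread within the numbers, given above, stands beside these counts.

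**Figure D3:**
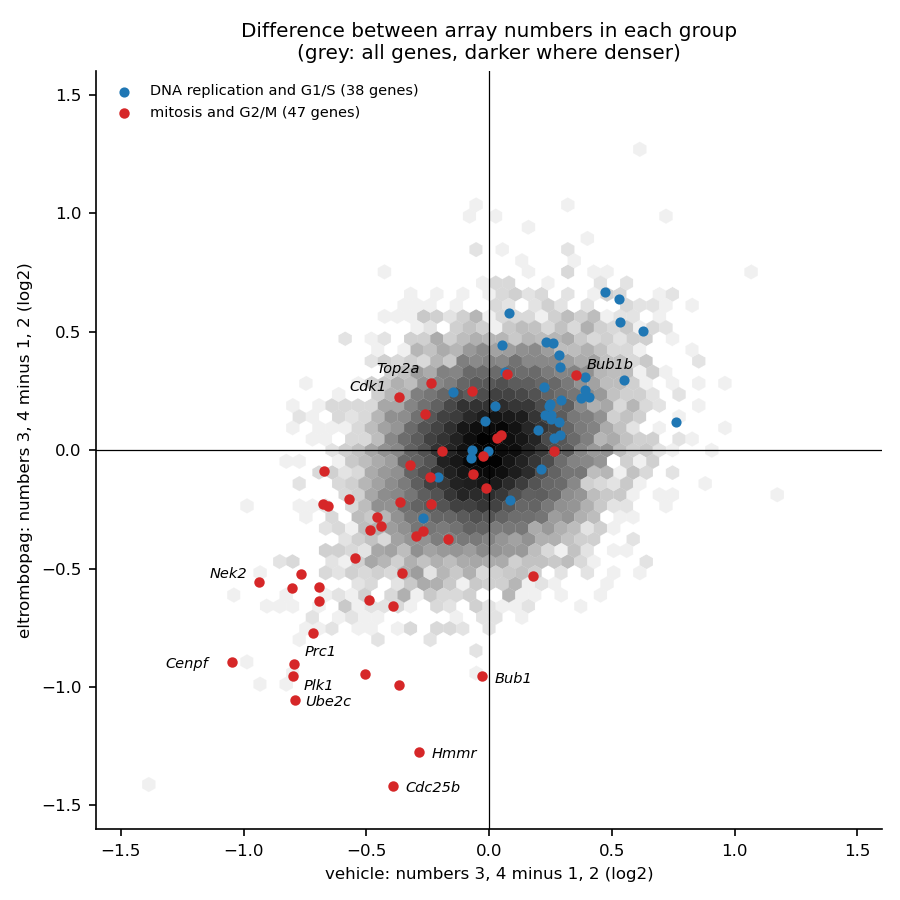
Mean log2 difference between the arrays numbered 3 and 4 and those numbered 1 and 2, in vehicle (horizontal axis) and eltrombopag arrays (vertical axis); red points are the 47 mitosis genes, blue points 38 DNA replication genes, and grey hexagons all genes, darker where denser. Most red points lie at the lower left and most blue points in the upper right.

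By role, mitotic entry genes were lowest in numbers 3 and 4, with a median difference of -0.66 over the mean of both groups and 8 of 9 genes lower in each group. Plk1 averaged 9.80 ± 0.13 on the 4 arrays numbered 1 and 2 and 8.93 ± 0.16 (SD) on the 4 numbered 3 and 4, which is 1.83-fold apart with no overlap, and 1.72-fold without the arrays numbered 3. Ccnb2, the cyclin B2 gene, averaged 10.06 ± 0.0952 and 9.39 ± 0.0924, also without overlap. The cyclin A2 gene Ccna2, the kinase genes Aurka and Nek2, and those 2 made up the 5 entry genes that separated. Cdk1 itself did not, since its mean was 0.37 lower in numbers 3 and 4 with vehicle and 0.22 higher with the drug.

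All 4 anaphase onset genes were lower in numbers 3 and 4 in each group, with a median of -0.47. Ube2c averaged 9.04 ± 0.25 against 8.12 ± 0.14, a 1.90-fold gap with no overlap, and 1.76-fold without the arrays numbered 3. Cdc20 averaged 9.44 ± 0.22 against 8.80 ± 0.088, or 1.56-fold. Pttg1, the securin gene, stood nearly level between the numbers, at 10.24 ± 0.0936 and 10.15 ± 0.0324.

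Spindle genes followed. The 5 spindle-associated genes were all lower in numbers 3 and 4 in each group (median -0.41), and 6 of the 7 kinesins were (median -0.56). Prc1 averaged 8.49 ± 0.11 against 7.64 ± 0.23, and Kif23, a kinesin of the midzone, 8.53 ± 0.247 against 7.78 ± 0.305, neither with overlap. The 3 cytokinesis genes had a median of -0.44, and Racgap1, the partner of Kif23 in the centralspindlin complex, separated as well.

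The kinetochore genes were mixed, with a median of -0.06. Cenpf had the most negative difference of all members, at 7.19 ± 0.30 against 6.22 ± 0.28, or 1.96-fold, and 2.17-fold without the arrays numbered 3. Cenpe, a kinetochore motor, and Cenpa, the histone variant that marks the centromere, also separated. Spc24, Spc25, Cenpk and Cenpm, which encode other inner and outer kinetochore subunits, had mean differences of 0.06 to 0.20 in the other direction. The checkpoint genes (median -0.10) and the passenger genes (-0.08) held no gene that separated. Bub1b, the gene of the checkpoint protein BubR1, had a higher mean in numbers 3 and 4 by 0.35 with vehicle and 0.32 with the drug. Only its arrays numbered 4 were high, at 7.17 and 7.37. Those numbered 3, at 6.35 and 6.37, lay within the 6.25 to 6.85 of numbers 1 and 2. Mki67 separated with a gap of only 1.13-fold, at 11.02 ± 0.068 against 10.84 ± 0.041, and Top2a did not.

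**Figure D4:**
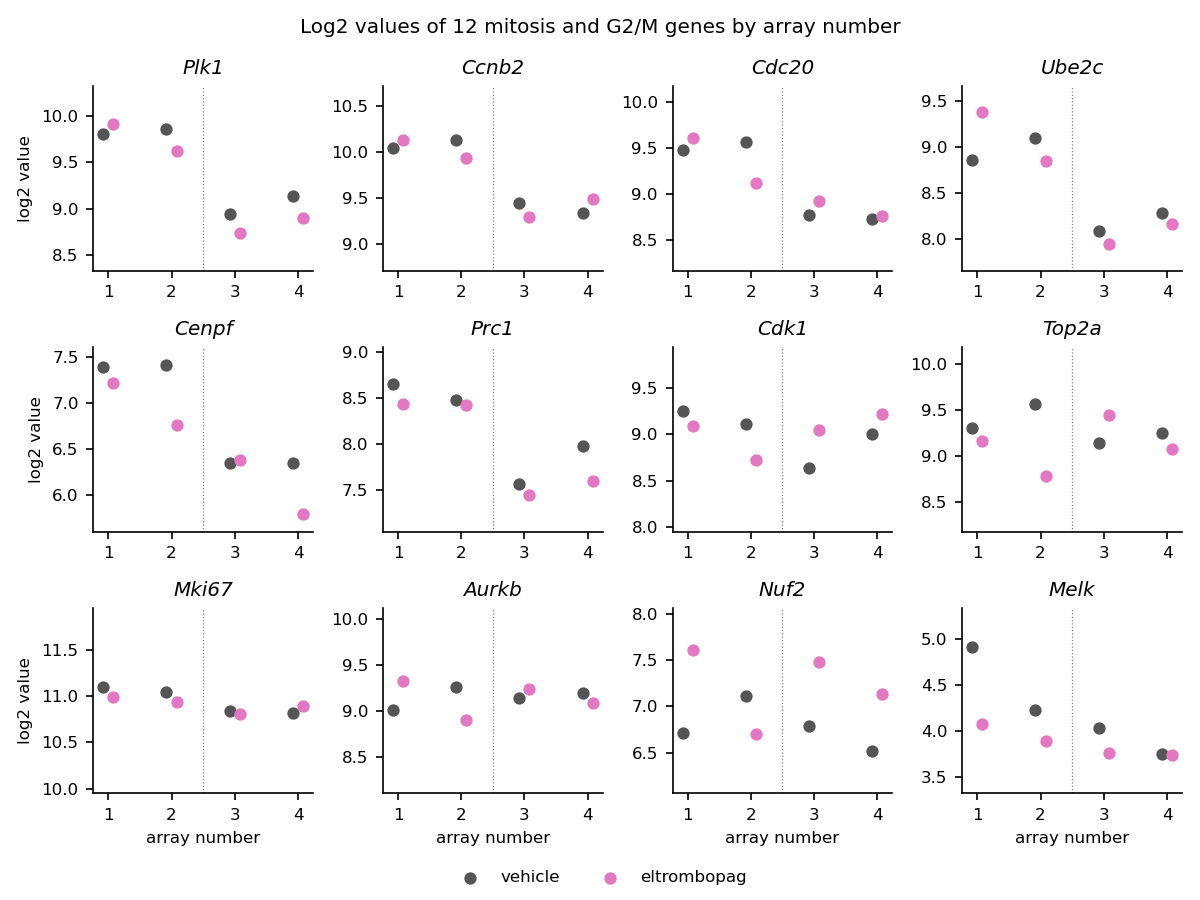
Log2 values of 12 of the genes by array number, with vehicle in grey and eltrombopag in pink; each vertical axis spans 2 log2 units. For Plk1, Ccnb2, Cdc20, Ube2c, Cenpf and Prc1 both groups step down between numbers 2 and 3, while Aurkb, Nuf2, Cdk1 and Top2a show no such step in both groups. Cdk1 and Top2a are lower in numbers 3 and 4 with vehicle only.

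Whether the drug difference itself depended on the array numbers was tested with an interaction term in limma. No member and none of the 19505 genes passed (0.00%, smallest adjusted p 0.83 over all genes), and 3 members had an unadjusted p under 0.05, against 3.78% of all genes. Hmmr had the smallest, with the gap between numbers more negative in eltrombopag arrays by 0.99 (SE 0.27, unadjusted p = 0.006, adjusted p = 0.9996 in limma). Kif20b, a kinesin of the midzone, and Tpx2, which activates Aurora A kinase on the spindle, had p of 0.039 and 0.045 in opposite directions. Cdc25b had gaps of -0.39 with vehicle and -1.42 with the drug, and its interaction of -1.03 had an SE of 0.48. Without both arrays numbered 3, only the arrays numbered 4 were left against numbers 1 and 2, so gaps alone are given. For Hmmr the gap was then -0.12 with vehicle and -1.46 with the drug. It was 0.28 and -0.82 for Kif20b, and -0.54 and -0.11 for Tpx2. Across the 47 members, the gaps in the separate vehicle and eltrombopag arrays correlated with r = 0.52, and across all genes with r = 0.38. Genes are not independent replicates here.

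Members also varied together within groups. After the group means were removed, the 1081 pairs of members had a median Pearson correlation of 0.46 over the 8 arrays, and 45.8% of the pairs were above 0.5. For pairs over all genes the median was 0.0035 and 13.7% were above 0.5. Cdc20 and Ube2c, at medians of 0.75 and 0.74, followed the other members most closely. Bub1b (-0.36) and Cenpm (-0.29) ran against them. All pairs share the same 8 arrays and the step between numbers, so this restates the pattern above for pairs.

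Genes outside the 48 give the setting. Of 66 other mitosis genes, none passed the drug test (median difference 0.003), and 38 were lower in numbers 3 and 4 in both groups against 8 higher. Their arrays separated in the lower direction for 10, among them Psrc1, at -0.99, Gtse1 and Aspm. The 38 DNA replication and G1/S genes ran the other way: 29 were higher in numbers 3 and 4 in both groups and 5 lower, with medians of 0.25 and 0.20, and 13 separated upward. Without the arrays numbered 3 the counts were 26 and 3, with medians of 0.32 and 0.19. The replication factor gene Rfc3, at 0.58, and Gmnn, the gene of the licensing inhibitor geminin, at 0.57, were among these. No replication gene passed the drug test, where 24 were higher and 14 lower.

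Of 22 genes of cell cycle transcription factors, which include the E2F, MYB and DREAM genes, 8 were lower and 9 higher in numbers 3 and 4 in both groups, and none had an unadjusted p under 0.05 for the drug in limma. The arrays separated in the lower direction for 2 of them and upward for 2. Foxm1, the gene of FOXM1, was not analysed here. The 22 genes of G2/M brakes and the anaphase-promoting complex held 16 that were higher and 4 lower. Wee1, which inhibits Cdk1, differed by 0.29 and the checkpoint kinase gene Chek1 by 0.59, while Cdkn1a, the gene of the inhibitor p21, differed by -0.68. Each of these separated without overlap. Among 17 quiescence and G1 regulators the counts were 5 and 5.

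**Figure D5:**
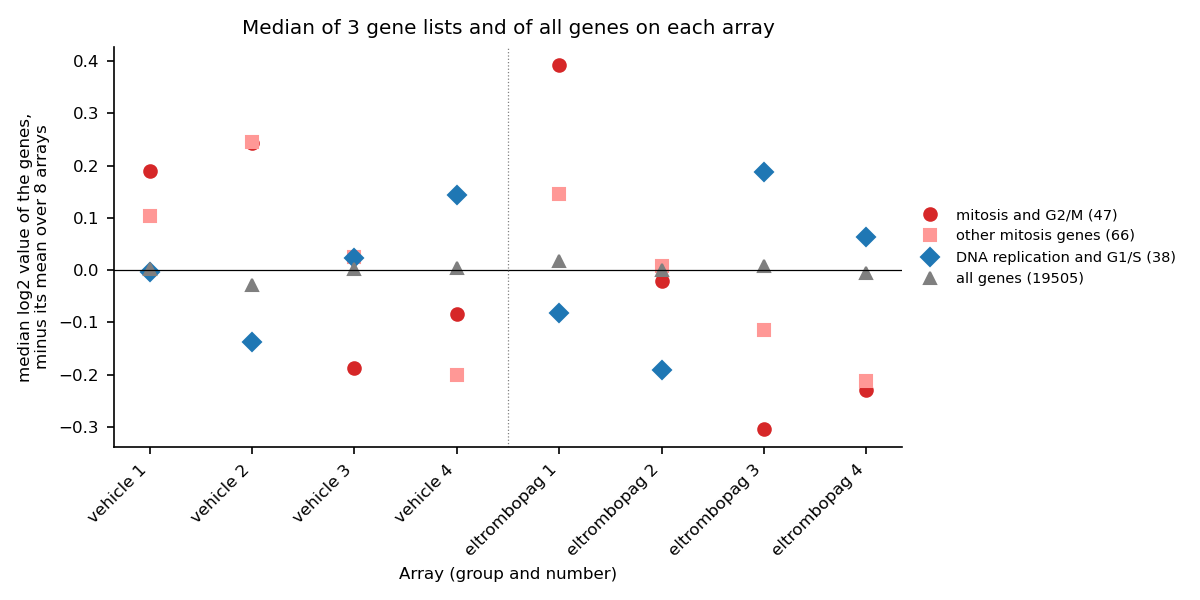
Median log2 value of each gene list on each array, minus the mean of that median over the 8 arrays, for the 47 mitosis genes, 66 other mitosis genes, 38 DNA replication genes and all genes. In both groups the mitosis medians are lower and the replication medians higher on arrays numbered 3 and 4.

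Of 9 lists of cell identity markers, the summed levels of stem cell, neutrophil and monocyte, and erythroid markers differed between the numbers without overlap, and those of the other 6 overlapped. Their part in the difference between numbers was not tested. Of 13 stem cell markers 8 were higher in numbers 3 and 4 in both groups and 0 lower, and the sum of their linear values ran from 15295 to 16299 in numbers 1 and 2 and from 17556 to 18250 in numbers 3 and 4. For 11 neutrophil and monocyte markers the counts were also 8 and 0, with sums of 1231 to 1392 and 1545 to 2040. For 9 erythroid markers they were 6 and 0, with 1 gene separated upward and sums of 1904 to 2049 and 2147 to 2693. Each of these sums, and that of the megakaryocyte markers, lay above the range of numbers 1 and 2 on both arrays numbered 4, taken without the arrays numbered 3. Sums weigh genes of high value most. By gene, without the arrays numbered 3, 7 stem cell markers were higher in both groups and 1 lower. The counts were 6 and 0 for neutrophil and monocyte markers. For erythroid markers they were 3 and 4, with a median difference of -0.06. Sums over 9 megakaryocyte markers, at 1923 to 2358 and 2241 to 2936, overlapped over all arrays, as did those over 10 progenitor markers (4671 to 5214 and 4933 to 5411). B cell markers summed to 443 to 483 and 429 to 495, mast cell and basophil markers to 338 to 396 and 364 to 397, and stromal and endothelial markers to 1196 to 1323 and 1224 to 1412. T and NK cell markers summed to 666 to 717 and 543 to 678. The same sum over the 47 mitosis genes was 18125 to 21710 in numbers 1 and 2 and 15735 to 16605 in numbers 3 and 4.

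Promoter letters were set beside the split between numbers. Of the 16 members that separated, 15 had a RefSeq entry, and 12 of these held both TTTGAA and CCAAT. Of the other measured members 25 had an entry, and 12 held both. Among the promoters printed above, Cdk1 and Top2a held both elements without separating, and Plk1 separated with TTTAAA as well as TTTGAA in its window. In the DNA replication list TTTGAA was in 12.1% of windows and CCAAT in 54.5%, and in the other mitosis list in 50% and 62.9%.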

How the data were processed

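Per the submitters' processing notes, the authors used oligo, RMA and limma, and the deposited table holds log2 values, 1 column per array, for 22206 probe sets on 8 arrays. Versions and the order of steps are not given in the sources used here. RMA scales arrays to a shared distribution, so changes of total RNA are not seen.

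The platform annotation named 19572 probe sets with 1 symbol, 0 with several, and 2634 were unnamed here. The probe set with the highest mean was kept for each of 19505 genes. Groups came from the titles. The moderated test of limma 3.58.1, run in R 4.3.3 (lmFit, then eBayes, 4 against 4 arrays, no filter, Benjamini-Hochberg over all genes, adjusted p under 0.05) tested eltrombopag against vehicle, and an interaction term tested it between array numbers. The code was tested on simulated data. The precision is limited by the number of arrays.

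Same-numbered arrays of both groups deviated together from their group means, with correlations over genes of 0.232, 0.286, 0.181 and 0.133, against -0.203 to 0.167 for other pairs. On this evidence from the data, not the labels, the numbers may pair arrays. The reported fit has no block, and a fit with a block per number is an alternative. The members, the 14 other lists (251 of 271 entries measured) and the array number split were chosen with earlier results of these data known. Genes given array by array were 8 fixed ones (Cdk1, Ccnb1, Plk1, Aurkb, Bub1, Cdc20, Top2a, Mki67), the 5 members of smallest p in each direction, and the 5 of largest difference between numbers. Any other gene was named for its role or after its values were seen. Alternatives were other normalizations, a filter, priors, weights, a replicate block, subsets of arrays and each array left out.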

Additional observations from a re-analysis of the deposited data

Results flagged for a closer look

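In 94 sets of 4 arrays (47 genes in each of the 2 groups), 8 had a single array far from the other 3, where about 1 in 20 sets would by chance. The value is the gap to the nearest array divided by the whole range. On single arrays that stood high, Birc5 was at 9.61 on eltrombopag array 1, against 8.73 to 8.84 (0.868), and Kif11 at 8.11 on that same array, against 7.68 to 7.73 (0.882). Ttk, a checkpoint kinase gene, was at 7.13 on vehicle array 2, against 6.30 to 6.42 (0.856), and the kinesin gene Kif4 at 6.43 on that array, against 5.57 to 5.68 (0.874). Bub1b was at 7.17 on vehicle array 4, against 6.35 to 6.44 (0.890). On single arrays that stood low, Ndc80 was at 7.26 on vehicle array 3, against 7.62 to 7.69 (0.833), and at 7.18 on eltrombopag array 3, against 7.56 to 7.60 (0.896). The cytokinesis gene Anln was at 6.23 on vehicle array 4, against 6.56 to 6.57 (0.967).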

How the results depend on the processing

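Neither a gene nor a member passed the threshold in any of 20 alternatives to the drug test or 14 to the interaction, of which the interaction without both arrays numbered 3 was chosen after seeing the data. With the replicate block the count called was 0, and 904 genes and 2 members (Melk and Cenpf) had an unadjusted p under 0.05. Over all alternatives those counts ran from 304 genes, under the filter that kept 36 members, to 945, and from 0 to 6 members. The 6 members came with arrays numbered 3 and 4 alone, where 853 of the 19505 genes had an unadjusted p under 0.05. The block changed no call. Counts of members separated by number ran from 16 to 22 with single arrays left out, where 5.32% to 5.84% of all genes lay below. They were 17 after a further quantile normalization (3.81%) or with equal medians (3.94%), and 14 of 36 under the filter (5.71%). Of 20 named members, 10 turned sign for the drug in 1 or more settings, Cdc25b, Hmmr and Bub1 among them, and the cause was not tested. With numbers 1 and 2 alone the difference was -0.28 for Cdk1, 0.22 for Bub1, 0.082 for Hmmr and 0.015 for Cdc25b. With numbers 3 and 4 alone it was 0.092 for Cdc20, 0.062 for Top2a, 0.024 for Mki67 and -0.13 for Ube2c. Without both arrays numbered 3 it was -0.11 for Cdk1 and 0.036 for Bub1. Array weights gave 0.022 for Cdc20, a further quantile normalization -0.00043 and equal medians -0.0098 for Ube2c. With single arrays left out, Cdk1 ran from -0.10 to 0.12, Plk1 from -0.35 to 0.045, Aurkb from -0.078 to 0.062, Bub1 from -0.53 to 0.082, Cdc20 from -0.20 to 0.11, Mki67 from -0.083 to 0.0097 and Ube2c from -0.26 to 0.21. With 4 arrays a group, differences under about 1.5-fold could not be told from 0 for many members, and no detection calls show which dim probe sets measured a transcript.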
